A study of Mus musculus with 2 samples.

Results

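Chromatin immunoprecipitation and sequencing of mouse embryo heads gave 39579 peaks inside genes for long non-coding RNAs (lncRNAs). They made up 6.77% of the 584724 peaks in the deposited list of the library titled zr2149_2, here called library 1, and 6.86% of its 576675 peaks on chromosomes 1 to 19. A peak was included when its summit, the base with the highest read overlap, lay inside a gene of RefSeq type lncRNA and more than 1 kb from any protein-coding gene body. Sequence that meets this rule made up 6.985% of the autosomal sequence between first and last peaks, close to the share of peaks. The RefSeq table of assembly GRCm38.p6 used 0 times the broader type ncRNA that the rule also names, so every gene below is of type lncRNA. A further 17230 summits lay in a lncRNA gene but inside a protein-coding gene or within 1 kb of one, and are given only where a named gene holds them. Both libraries of the series came from snap-frozen E10.5 heads, and the pull-down used the antibody GFP (sc-9996), raised against green fluorescent protein. The labels gave no genotype, strain, sex, litter or control, and did not name the protein that carried GFP. The series title names the core histone variant H3.2 and the eye. Library 2 had 118 peaks on chromosomes 1 to 19, of which 7 met the same rule, so the results rest on 1 library and no difference was tested across samples.

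LncRNAs are transcripts that encode no known protein and are made mostly by RNA polymerase II. Some act at the locus where they are made, as Airn and Kcnq1ot1 do in genomic imprinting, and others give structure to nuclear bodies, as Neat1 does to paraspeckles. Many are transcribed beside or across developmental regulators, such as Sox2ot over Sox2 and Six3os1 beside the eye-field gene Six3. Others are precursors of microRNAs or of small nucleolar RNAs. Because lncRNA genes are often expressed in few cell types, whole heads mix cells in which a given gene is on with cells in which it is off. RNA was not measured.

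Peaks at annotated transcription starts are shown here by sequence. The 300 bases from 250 before to 50 after an annotated start (RefSeq, GRCm38.p6) are given for the 3 genes that the naming rule selected. These are the named genes with a member summit inside such a window. A member lies inside its gene, and each of these summits lies upstream of the start shown, so all 3 are internal starts of longer genes, not the outer starts profiled below. The 21 bases in capitals are centred on the summit, and each sequence is written 5′ to 3′ on the gene's own strand.
Gm36894 internal start: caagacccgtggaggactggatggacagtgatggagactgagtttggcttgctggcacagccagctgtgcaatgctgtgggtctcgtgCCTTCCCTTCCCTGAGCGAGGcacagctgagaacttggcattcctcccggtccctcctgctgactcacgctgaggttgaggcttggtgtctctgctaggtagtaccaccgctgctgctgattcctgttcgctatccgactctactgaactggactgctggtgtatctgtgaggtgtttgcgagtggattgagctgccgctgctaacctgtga
Mir100hg internal start: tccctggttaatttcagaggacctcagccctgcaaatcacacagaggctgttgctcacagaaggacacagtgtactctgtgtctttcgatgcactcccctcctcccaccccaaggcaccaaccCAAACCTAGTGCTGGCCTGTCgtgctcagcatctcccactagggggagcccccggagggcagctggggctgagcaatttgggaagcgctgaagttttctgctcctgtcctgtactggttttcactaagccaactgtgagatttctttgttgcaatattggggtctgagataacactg
Mir9-3hg internal start: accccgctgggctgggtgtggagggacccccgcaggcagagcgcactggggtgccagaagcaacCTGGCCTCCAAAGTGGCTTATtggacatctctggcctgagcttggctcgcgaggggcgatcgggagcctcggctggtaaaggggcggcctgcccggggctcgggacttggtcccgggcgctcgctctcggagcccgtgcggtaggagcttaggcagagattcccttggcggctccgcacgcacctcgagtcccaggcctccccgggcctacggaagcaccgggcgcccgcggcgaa

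The Gm36894 window lay at chr12:112255309-112255608 on the plus strand and held a peak of fold enrichment 4.04, with a summit pileup of 14 overlapping reads (95% Poisson interval 7.65 to 23.5). Its GC content was 57% and it held 10 CpG dinucleotides. The Mir100hg window (chr9:41474643-41474942, plus strand) and the Mir9-3hg window (chr7:79515185-79515484, plus strand) each held a peak of fold 2.96 and a pileup of 10 (4.80 to 18.4). Mir100hg had 53.7% GC and 4 CpG, whereas Mir9-3hg, a host of miR-9, had 70.7% GC and 28 CpG. A contrast is the start of Gm17215, one of the longest lncRNA genes with no peak, at chr8:7380698-7380997 on the plus strand. It was chosen after its values were seen, as the window of lowest GC content among 3 such genes, so its low GC follows from the choice. It had 36.3% GC and 0 CpG, and has no capitals because it held no summit. The other windows had 38.7% GC with 1 CpG and 44.3% with 3.
Gm17215 start: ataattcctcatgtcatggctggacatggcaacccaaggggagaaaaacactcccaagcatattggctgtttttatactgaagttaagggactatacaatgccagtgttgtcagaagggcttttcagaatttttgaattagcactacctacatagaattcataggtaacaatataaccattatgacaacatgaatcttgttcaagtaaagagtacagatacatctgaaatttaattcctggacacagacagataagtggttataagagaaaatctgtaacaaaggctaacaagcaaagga

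Some member peaks overlapped microRNA hairpins, by at least 1 bp. The mature forms below (RefSeq, GRCm38.p6) are those of hairpins touched by a member peak in genes or microRNA families known from head development or imprinting, picked after the peaks were seen. The seed, bases 2 to 8, is in capitals. A peak that touches a hairpin need not cover the mature form, and miR-182-5p lies outside the peak at its hairpin.
miR-9-5p: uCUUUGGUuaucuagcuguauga
miR-182-5p: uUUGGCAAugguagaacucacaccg
let-7b-5p: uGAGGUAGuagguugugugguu
miR-200a-3p: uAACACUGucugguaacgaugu
miR-200b-3p: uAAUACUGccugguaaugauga
miR-429-3p: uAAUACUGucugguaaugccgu
miR-370-3p: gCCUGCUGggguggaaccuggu
miR-675-5p: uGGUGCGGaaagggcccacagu
miR-129-5p: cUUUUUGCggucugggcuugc

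miR-200b-3p and miR-429-3p share the seed AAUACUG, and both lie with miR-200a in Gm13648 on chromosome 4. All 3 of these hairpins were touched by peaks, of fold 3.23 at Mir200a, 2.98 at Mir429 and 2.96 at Mir200b. The Mir9-1 hairpin, source of the neural progenitor microRNA miR-9, lay inside a broad peak at chr3:88214313-88216057 in Gm3764 with fold 4.85. The peak at Mir182, part of a sensory organ cluster, had fold 4.13, and the peak at Mirlet7b, in Lncppara, had fold 3.66. Mir370 in the imprinted gene Rian had fold 5.66, Mir675 in H19 had 4.85, and Mir129-2 in Mir670hg had 3.77. In all, 26 of the 94 hairpins in eligible parts of lncRNA genes overlapped a member peak by at least 1 bp (27.7%, 95% interval 18.9 to 37.9). The corresponding shares were 254 of 612 hairpins in protein-coding genes (41.5%, 37.6 to 45.5) and 60 of 172 outside all genes (34.9%, 27.8 to 42.5). The lncRNA interval overlapped both of the others. The touched hairpins in lncRNA genes had a median GC content of 52.0% against 46.7% for the others, and the part of GC content in this share was not tested.

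Library 1 gave 240.0 summits per Mb of autosomal sequence between the first and last peak of each chromosome. The authors' fold enrichment of member peaks ran from 1.52 to 10.8 with a median of 3.80, against 3.90 for peaks inside protein-coding genes and 3.91 for peaks outside all genes. Pileup, recovered from the deposited fold and −log10 p-value, had a median of 14 in members and 15 in both other groups, over a genome-wide background of 2.71. So these peaks were shallow: a pileup of 14 has a counting interval of 7.65 to 23.5. Member peaks had a median width of 194 bp, and 5.86% (5.63 to 6.10) were at least 500 bp wide, against 9.02% (8.92 to 9.12) inside protein-coding genes. A −log10 q-value of at least 5 was reached by 39.4% of members, 40.8% of peaks in protein-coding genes and 42.0% of peaks outside genes. Intervals here cover counting error only, and there are no replicates.

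Inside lncRNA genes the density was 235.8 summits per Mb (95% exact Poisson interval 233.5 to 238.2) over 167.8 Mb. It was 320.3 per Mb (319.2 to 321.4) inside protein-coding genes and 171.2 per Mb (170.5 to 171.9) outside all genes, so lncRNA genes lay between them. Genes of neither type, over 1 kb from protein-coding genes, held 241.9 per Mb (236.6 to 247.3), 1.41 times the density outside genes. The excess over sequence outside genes was thus not particular to lncRNA genes. The lncRNA density was 1.38 times (1.36 to 1.39) that outside genes. With 1 peak kept per run of summits within 10 kb the direction turned, to a ratio of 0.882, since a dense stretch then counts once. For peaks with a −log10 q-value of at least 5 the densities were 93.0 and 71.9 per Mb, a ratio of 1.29. For the 10% of peaks with the highest fold, 5.39 or more, they were 22.96 and 20.01 per Mb, a ratio of 1.15. Genes of neither type held 121 and 40.34 per Mb at these cutoffs. At the edge of the 1 kb rule, lncRNA sequence 1 to 5 kb from a protein-coding gene held 333.9 summits per Mb, and all sequence within 1 kb of one held 339.9 per Mb.

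The order held chromosome by chromosome. The lncRNA density was above the density outside genes on 19 of 19 autosomes, with intervals that did not overlap on 19, and below the protein-coding density on 19. It ran from 161.9 per Mb on chromosome 3 to 349.3 per Mb on chromosome 17. The ratio to sequence outside genes ran from 1.17 on chromosome 10 through a median of 1.40 to 1.75 on chromosome 17. Chromosome 6 was the closest to parity with protein-coding genes, at 253.5 per Mb in lncRNA genes (243.0 to 264.4) and 263.5 per Mb in protein-coding genes (259.4 to 267.6), and those intervals overlap.

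**Figure D1:**
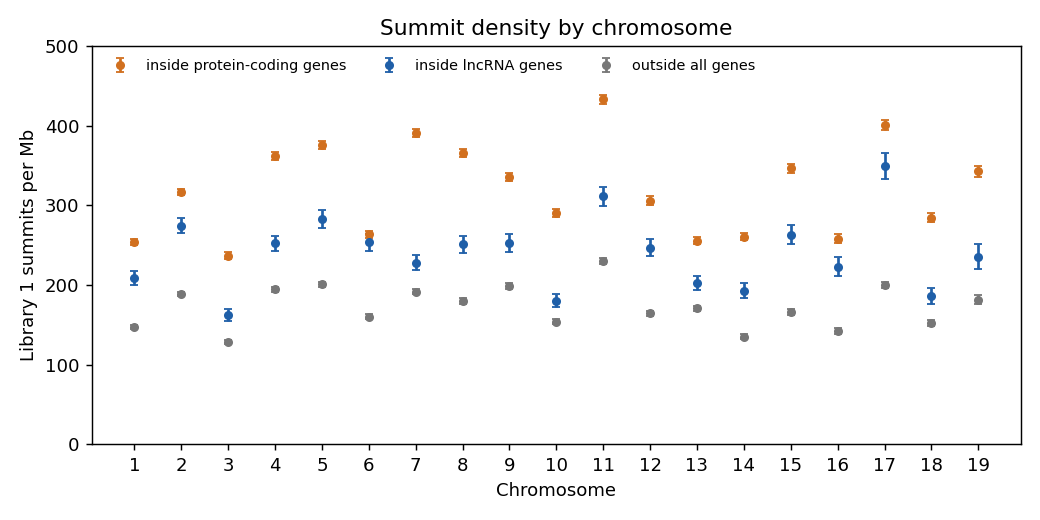
Library 1 summits per Mb (vertical axis) on each autosome (horizontal axis) inside protein-coding genes (orange), inside lncRNA genes (blue) and outside all genes (grey), with 95% exact Poisson intervals. On each of the 19 chromosomes the lncRNA point lies between the others, lowest at 161.9 on chromosome 3 and highest at 349.3 on chromosome 17.

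Peaks in lncRNA genes were sparser farther from protein-coding genes. Within lncRNA genes the density was 333.9 per Mb at 1 to 5 kb from the nearest protein-coding gene, 298.5 at 20 to 50 kb, 204.9 at 100 to 200 kb and 113.0 (109.9 to 116.2) beyond 200 kb. In sequence outside all genes the density went, over the same steps, from 275.1 to 85.23 per Mb. At each of the 7 distances the lncRNA density was the higher one, by a ratio of 1.21 at 1 to 5 kb up to 1.42 at 100 to 200 kb. Members also lay closer together than peaks outside genes, with a median of 1065 bp to the nearest summit of any kind against 1257 bp, and 873 bp inside protein-coding genes.

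**Figure D2:**
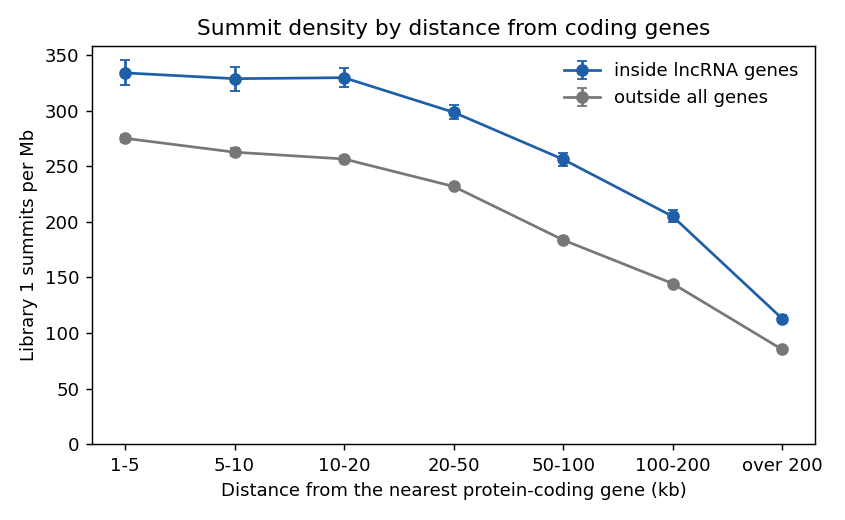
Library 1 summits per Mb (vertical axis) inside lncRNA genes and outside all genes by distance from the nearest protein-coding gene body in kb (horizontal axis), with 95% exact Poisson intervals. Both lines are lower at longer distances, and the lncRNA line is the upper one at every step, 333.9 against 275.1 at 1 to 5 kb and 113.0 against 85.23 beyond 200 kb.

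Gene starts stood out from gene ends. Density was profiled around 3486 lncRNA genes of at least 5 kb that overlapped no other gene. Each lay wholly over 1 kb from protein-coding genes, and 2687 of them had a strand in the RefSeq promoter table. The first 250 bp inside the start held 394 summits, or 586.5 per Mb (530.0 to 647.4), and the next 250 bp held 457.0 per Mb (407.3 to 511.1). From 1 kb inward the density was near that of the interior, 272 per Mb at 2 to 5 kb from the start. It was 171.7 per Mb (159.9 to 184.2) at 20 to 50 kb from the start, a distance that only the longer genes reach. In the 250 bp just upstream it was 410.7 per Mb (363.3 to 462.5), and 299.6 per Mb at 500 to 750 bp upstream. At the other end no such rise was measured in the bins next to it. The last 250 bp of the gene held 278.4 per Mb (239.9 to 321.3) and the first 250 bp beyond it held 231.5 per Mb. A smaller rise lay farther inside, with 357.3 per Mb (313.5 to 405.5) at 250 to 500 bp before the end. At 2 to 5 kb before the end the density was 272.1 per Mb (259.8 to 284.9). Protein-coding genes held 1002 per Mb (955 to 1051) in the first 250 bp inside the start and 623.9 per Mb at 250 to 500 bp before the end. The intervals of the 2 gene types did not overlap in either bin. Only the lncRNA genes and their flanks had to lie over 1 kb from protein-coding genes, so the 2 types were not matched. At 500 to 750 bp upstream the protein-coding density was the lower one, 222.3 per Mb (198.7 to 248.0) against 299.6 (258.8 to 344.9). At 2 to 5 kb inside, protein-coding genes held 371.2 per Mb measured from the start and 504.4 from the end.

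**Figure D3:**
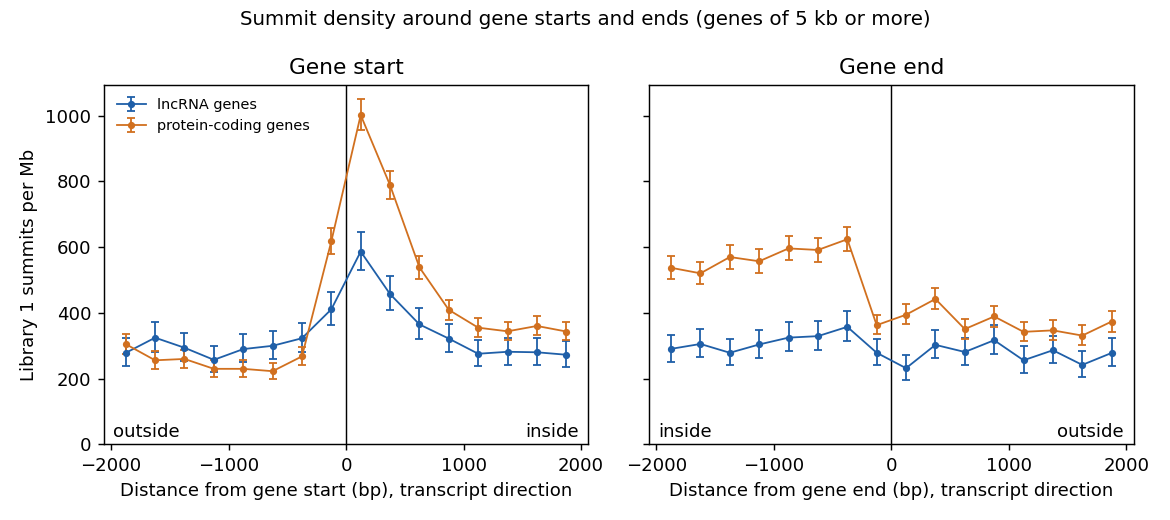
Library 1 summits per Mb (vertical axis) in 250-bp bins by distance in bp from the annotated start (left) and end (right), for lncRNA genes (blue) and protein-coding genes (orange) of at least 5 kb, with 95% exact Poisson intervals. The lncRNA line peaks at 586.5 just inside the start and is at 278.4 just inside the end, and the protein-coding line peaks at 1002.

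Peaks near starts differed little in height from those inside. Among 29552 members that lay in 1 gene with a known strand, 1409 (4.77%) were within 500 bp of the start and 1065 (3.60%) within 500 bp of the end. Another 22283 (75.4%) were over 2 kb from both, so most of these peaks were interior. The median fold was 3.85 near starts, 3.91 near ends and 3.85 inside. Width differed more: 8.59% (7.18 to 10.2) of peaks near starts were at least 500 bp wide, against 5.79% (5.48 to 6.10) of interior ones. In genes of at least 5 kb cut into 10 equal parts from start to end, the part at the start held 10.9% of summits (10.6 to 11.3), and the others held from 9.62% to 10.3%.

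Compared with their own surroundings, the bodies of lncRNA genes were not richer in peaks. In 1119 genes of at least 20 kb, sequence 2 to 10 kb inside an end held 200.1 summits per Mb and sequence 2 to 10 kb outside it held 194.8 per Mb. The ratio was 1.03 (0.979 to 1.08), an interval that includes 1. The 4279 protein-coding genes of at least 20 kb that overlapped no other gene held 390.0 per Mb inside and 297.6 outside. That is a ratio of 1.31 (1.28 to 1.34). Only the lncRNA genes and their flanks had to lie over 1 kb from protein-coding genes, so the 2 gene types were not matched. With a −log10 q-value of at least 5 the ratios were 0.940 (0.870 to 1.02) for lncRNA genes and 1.41 (1.37 to 1.46) for protein-coding genes. With lncRNA genes of at least 5 kb the ratio was 0.932 (0.906 to 0.959). Inside sequence was counted only to the middle of each gene and flanks in full, so short genes entered mostly on the outside. At 2 to 5 kb from the ends the densities were 271.0 per Mb inside and 269.6 outside. At 5 to 10 kb, which only genes over 10 kb reach inside, they were 218.4 and 260.4.

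The base composition of start windows moved with the presence of a summit. Of 7065 windows of lncRNA genes lying over 1 kb from protein-coding genes, 1067 (15.1%, 14.3 to 16.0) held a summit. In windows under 40% GC the share was 0.485% (0.158 to 1.13), and at 45 to 50% GC it was 8.66%. It was 34.2% (31.8 to 36.6) at 50 to 55%, 47.7% (43.3 to 52.1) at 55 to 60% and 35.1% (28.9 to 41.8) above that. Windows of protein-coding genes followed the same steps, with 0.114% under 40% GC and 34.5% (32.9 to 36.2) at 55 to 60%. In that bin the lncRNA windows had the higher share, and so they did at 50 to 55% GC, where protein-coding windows reached 24.6% (23.1 to 26.2). In the other GC bins the intervals of the gene types overlapped. Only lncRNA windows had to lie over 1 kb from protein-coding genes, so the types were not matched. The 7065 lncRNA windows came from 5786 genes, so they are not all separate observations. Over all windows the order was the other way, 22.8% for protein-coding genes. lncRNA windows with a summit had a median of 53.0% GC and 6 CpG, against 45.7% and 3 for those without. The part of GC content in the density at starts was not tested.

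**Figure D4:**
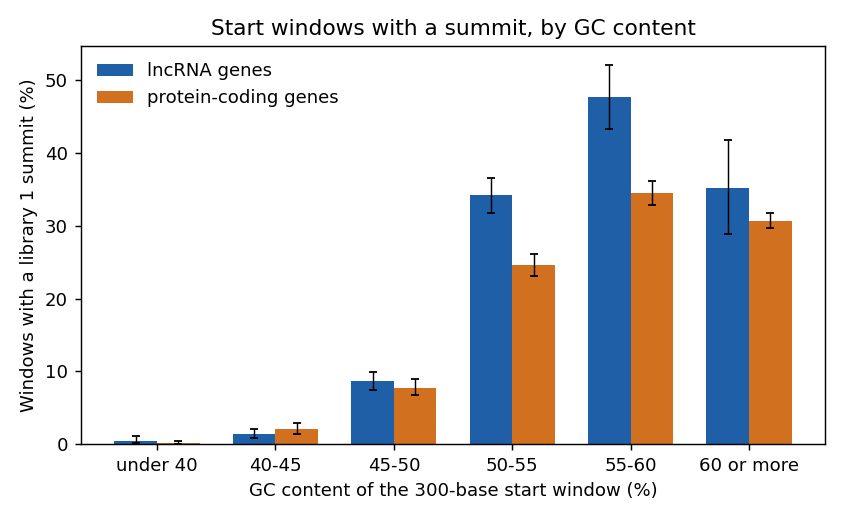
Share of 300-base start windows that hold a library 1 summit in percent (vertical axis) by the window's GC content in percent (horizontal axis), for lncRNA genes and protein-coding genes, with 95% Clopper-Pearson intervals. For lncRNA genes the share goes from 0.485% under 40% GC to 47.7% at 55 to 60% GC and is 35.1% above that.

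A set of short promoter motifs were searched on both strands of these windows, by exact letters. TATAAA, the core of the TATA box, was in 8.44% of lncRNA windows with a summit, 18.9% of those without and 17.3% of all. CCAAT was in 33.0%, 38.6% and 37.8%. GGGCGG, the core of the GC box bound by Sp1-type factors, was in 15.5%, 8.0% and 9.13%. The AT-rich motif was thus in a smaller share, and the GC-rich motif in a larger share, of windows with a summit, and those windows also had the higher GC content. A match is not evidence of a bound site.

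By gene, 7446 of 9361 autosomal lncRNA genes with some sequence over 1 kb from protein-coding genes held at least 1 member peak, which is the background of 79.5% for the lists below. With a −log10 q-value of at least 5 the count was 5526 (59%). For protein-coding genes, counted over the whole body, 18270 of 20558 (88.9%) held a summit, and 15839 (77%) held one with a −log10 q-value of at least 5. Among the lncRNA genes with members, 1733 held 1 peak, 3026 held 2 to 4, 2383 held 5 to 19 and 304 held 20 or more. Those 304 genes held 10230 peaks, or 25.9% of the members, and 1852 peaks (4.68%) lay in more than 1 lncRNA gene. A further 2961 lncRNA genes had no eligible sequence, and 2449 of them held a summit that the rule leaves out.

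Length separated genes with and without a peak. The median length was 11.5 kb with a member and 3.80 kb without. Of lncRNA genes under 2 kb, 50.3% (47.0 to 53.7) held a peak, against 44.0% (42.0 to 46.1) of protein-coding genes of that length. At 2 to 5 kb the shares were 63.2% and 81.8%, and at 20 to 50 kb 92.9% and 98.3%. Density went the other way, from 577.7 summits per Mb in lncRNA genes under 2 kb to 142.4 per Mb in those over 100 kb. Protein-coding genes over 100 kb held 240.3 per Mb. In these densities by gene length and name, a peak or base in more than 1 lncRNA gene counts once for each. By name, genes with a given name such as Fendrr held 298.3 per Mb (285.4 to 311.6), those with a Gm number 242.6 (239.9 to 245.3), and those with a Rik clone name 206.7 (201.9 to 211.6). Gm1604a, with 106 peaks at 514.3 per Mb, was counted among the given names because of its last letter.

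**Figure D5:**
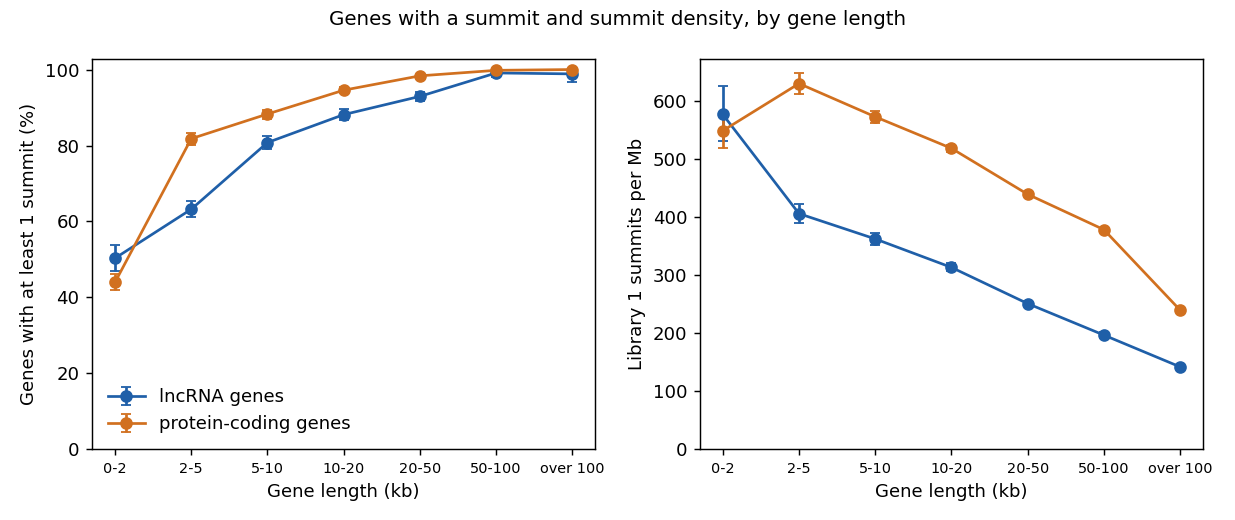
Share of genes with at least 1 library 1 summit in percent (left, vertical axis) and library 1 summits per Mb (right, vertical axis) by gene length in kb (horizontal axes), for lncRNA genes (blue) and protein-coding genes (orange), with 95% Clopper-Pearson and exact Poisson intervals. For lncRNA genes the share goes from 50.3% under 2 kb to 99.1% at 50 to 100 kb, while density goes from 577.7 to 142.4 per Mb.

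The 10 genes with the most members held 1073 peaks between them. Gm32611 on chromosome 4 held 124 peaks in 144.3 kb (859.5 per Mb, 714.9 to 1025), and A930011G23Rik held 120 in 431.8 kb (277.9 per Mb, 230.4 to 332.3). So near-equal counts came from densities that differed beyond their intervals. Gm19859 and the imprinted Snhg14, a host of small nucleolar RNAs, each held 114 peaks, at 687.3 and 170.2 per Mb. Gm33655 held 112, Gm1604a 106, 2610035D17Rik 101, Gm38475 96 and Zmiz1os1, beside the coregulator gene Zmiz1, 90. Gm36894, of which an internal start is printed above, held 96 peaks in 86.24 kb, 1113 per Mb, the highest density among these 10. The median fold of their members lay between 3.72 for Zmiz1os1 and 4.04 for Gm1604a, close to the 3.80 of all members.

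Of 4092 genes with at least 10 kb of eligible sequence, the median density was 198.7 per Mb (quartiles 90.65 and 387.3), and 252 (6.16%) held no member. The densest were Gm35920 with 17 peaks in 12.55 kb (1355 per Mb, 789.2 to 2169), Gm32245 with 1312 per Mb, Gm39265 with 1275, Gm51900 with 1238 and Mirc35hg, which holds Mir182, with 19 peaks and 1227 per Mb (738.7 to 1916). Their intervals overlap, so their order is not resolved. The longest with none were Gm33948 with 65.77 kb, Gm51641 with 50.18, Gm42291 with 48.65, Gm2516 with 47.98 and Gm17215 with 47.57 kb of eligible sequence. A count of 0 in Gm17215 allows up to 77.54 per Mb (upper limit of the 95% Poisson interval, which takes no account of picking genes by their count). These 5 were picked for having no member, so their place under the lower quartile follows from the choice. Gm51641 held 1 summit that the rule leaves out. The start windows of Gm42291, Gm2516 and Gm17215 had 38.7%, 44.3% and 36.3% GC, while 15 windows of 6 of the genes with most members had 42.3% to 66.7%, median 52%. Of those 15 windows 1 held a summit, and windows of the same gene can overlap, so they are not separate observations.

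The highest fold was 10.8, at chr7:59726026-59726555 in Snhg14, with a pileup of 46 (33.7 to 61.4). The next were 9.96 in 2310030A07Rik, 9.74 in Gm35223 (pileup 66, 51.0 to 84.0), 9.70 in 6530403H02Rik and 9.43 in Gm26564. A peak shared by 4930509J09Rik and Gm20754 and a peak in Gm30211 both had 9.16, followed by Gm36010 at 8.95 and 4930592A05Rik and Gm31088 at 8.89. The pileup intervals of these last 5 peaks overlap one another. The nearest protein-coding gene to these 10 peaks was between 10.2 kb away, for 2310030A07Rik, and 329.7 kb away, for 6530403H02Rik. The widest members were 4084 bp in Mup-ps15, 3387 bp in Gm34992, 3353 bp in Gm46074, 2525 bp in Gm31227 and 1867 bp in Gm41323. At 4 of these, in Mup-ps15, Gm34992, Gm46074 and Gm41323, the local background was 5.04, 8.39, 9.23 and 4.20 against 2.71 genome-wide, and its part in their width was not tested.

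All 17 eligible lncRNA genes beside eye, forebrain and neural regulators held a member peak, against 79.5% of all eligible genes. Their median length was 46.6 kb, against 9.21 kb for all eligible genes, and of all eligible lncRNA genes of 20 to 50 kb 92.9% held a member. They held 237 distinct peaks in 837.2 kb, 283.1 per Mb. Pax6os1, antisense to the eye regulator Pax6, held 42 peaks, the highest at chr2:105557979-105558266 with fold 6.76. Nkx2-2os held 40 members, Sox2ot 36, Tunar, a pluripotency and neural lncRNA, 33 (697.1 per Mb), Otx2os1 23 and Sox1ot 22. At the low end Rmst, a neuronal differentiation lncRNA, held 2 peaks in 83.43 kb (23.97 per Mb) and Pantr1 4 in 46.57 kb. Miat held 11, Lhx1os 6, Six3os1 5, and Vax2os and Dlx6os1 4 each. Paupar, which lies within Pax6os1 and shares its peaks, held 3, Pantr2 and Gm30731 2 each, and Evx1os 1. The best fold per gene ran from 3.23 in Rmst and Pantr2 to 6.76 in Pax6os1, median 5.12, against 4.85 for all genes with a member.

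All 7 eligible imprinted lncRNA genes held a member (100%, 59.0 to 100), against 79.5% of all eligible genes. Median length was 30.7 kb for these 7 genes. Among all eligible lncRNA genes of 20 to 50 kb, 92.9% held a member, so both background shares lie inside that interval. Snhg14 had 114, Meg3 and Airn 16 each, Rian 12, Mirg 9, and H19 and Igf2os 2 each. Meg3, Rian and Mirg lie together in the Dlk1-Dio3 imprinted domain, at 698.6, 213.2 and 621.6 per Mb. Kcnq1ot1 and Peg13 lay wholly in or near protein-coding genes and held 22 and 5 summits that the rule leaves out. Airn held 41 summits over its whole length and 16 over 1 kb from protein-coding genes.

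Of the broadly expressed nuclear and small nucleolar host RNAs, 13 of 25 held a member (52%, 31.3 to 72.2), against 79.5% of all eligible genes. The list's median length was 3.94 kb, and of all eligible lncRNA genes of 2 to 5 kb 63.2% held a member, inside that interval. Malat1, an abundant speckle RNA, held 0 in 6.98 kb, and Tug1 held 0 in 8.40 kb, which allows up to 528.3 and 438.9 per Mb (upper limits of the 95% intervals). Neat1, which lies beside Malat1, held 15 in 20.77 kb, 722.1 per Mb (404.1 to 1191). The host genes Snhg1, Snhg3, Snhg5, Snhg8, Snhg12, Snhg15, Gas5 and Zfas1 held 0, as did Dancr and Epb41l4aos, all 10 of them at most 3.17 kb long in eligible sequence. Snhg11 held 7 peaks with a best fold of 7.0, Snhg17 4, Snhg4 2, and Snhg7, Snhg10, Snhg16, Snhg18 and Snhg20 1 each. Oip5os1 and Norad held 1 each. Lncpint, with 69 peaks in 124.9 kb, and Trp53cor1, a p53 target, with 18 in 21.65 kb, held most of the list's 122.

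In the Hox clusters 4 of 10 eligible lncRNA genes held a member (40%, 12.2 to 73.8), over only 28.48 kb, against 79.5% of all eligible genes. The list's median length was 4.68 kb, and of all eligible lncRNA genes of 2 to 5 kb 63.2% held a member, inside that interval. Halr1 held 4, Hottip 3, and Hoxa11os and Hoxaas2 1 each, while Hotair held 0 in 3.89 kb. Hoxb5os, Hoxb3os and Hoxd3os1 held 0 members and 12, 3 and 3 summits near protein-coding genes, and Hotairm1 held 1 such summit. Mira held 0 in 0.132 kb. Of the microRNA hosts, 10 of 13 held a member at 132.5 per Mb over the list. Mir670hg held 22, Mir9-3hg 17, Mir100hg 15 in 238.7 kb, Dleu2 9 and Mir99ahg 7 in 229.1 kb (30.55 per Mb). Mirt1, with 13, is counted in this list and its density but is not a microRNA host gene. Lncppara held 5, Mir124a-1hg and Mir22hg 4 each and Mir124-2hg 1. Mir17hg, Mir155hg and Mir205hg held 0, in at most 3.75 kb.

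Of the heart, limb and mesoderm list 8 of 9 held a member (88.9%, 51.8 to 99.7), against 79.5% of all eligible genes. The list's median length was 13.1 kb, and of all eligible lncRNA genes of 10 to 20 kb 88.1% held a member. Fendrr, a lateral mesoderm lncRNA beside Foxf1, held 34 peaks in 28.23 kb, 1204 per Mb (834.1 to 1683). Carmn held 14 and Bvht, which overlaps it and shares a peak with it, 5, Lincmd1 3, and Hand2os1 and Gata6os 2 each, and H19 and Rian are counted above. Mhrt held 0 members in 0.666 kb and 6 summits inside or near protein-coding genes. In bulk heads, fewer cells of a type and less signal per cell cannot be told apart.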

How the data were processed

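Both libraries were deposited as MACS2-format peak lists, 1 per library, and library 1 was used here. Per the submitters' processing notes the tools were MACS2 2.1.0, Bowtie 1.1.2, Trimmomatic 0.33 and bcl2fastq 2.17. The notes list the builds hg38 and mm10, with no roles. The peak coordinates are used as mm10, counted from 1. The deposited score was not used. The deposited fold enrichment of each summit is a ratio made by the authors' caller, and the deposited −log10 p-value and −log10 q-value are the authors' as well. Settings and controls are not given in the sources used here.

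Pileup and background were solved from fold and −log10 p-value (tolerance 0.002) and were recovered for 100% of peaks, with a largest mismatch of 0.000152. Genes, starts and sequences came from RefSeq GRCm38.p6. 348 table entries, 90 of them lncRNA genes, fell out of position order on their chromosome and were treated as lying on other sequences. Sequence was classed in the order protein-coding body, within 1 kb of one, lncRNA gene, other gene, outside. Strand came from the promoter table. Densities have 95% exact Poisson and shares 95% Clopper-Pearson intervals, for counting error only. No test was made, because the labels give 1 group and no contrast, and nothing in them states that the libraries came from separate embryos. On a simulated chromosome 19 the intervals held the true value for 5 of 5 densities. The simulated summits fell independently of one another, as the intervals assume, so this checked the calculation only. It cannot show how well the intervals fit real summits that lie close together, 47.1% of members being within 1 kb of another summit. Python 3.11.15, numpy 2.4.6, scipy 1.17.1, pandas 2.3.3 and matplotlib 3.10.9 were used.

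Named are the 10 genes with most members, the 10 highest-fold and 5 widest members, the 5 densest genes (at least 10 kb eligible and 5 members) and 5 longest with none, and the genes of 6 lists. Up to 4 start windows with a member summit were to be printed. The members and lists were chosen with earlier results of these data known. Alternatives changed the distance to protein-coding genes, the peaks used, the gene length and names, the chromosomes and the bin width. Exons and the GC content of peaks were not analysed here.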

Additional observations from a re-analysis of the deposited data

Results flagged for a closer look

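Library 2 enters no comparison above, and 7 of its 118 autosomal peaks (5.93%, 95% Clopper-Pearson interval 2.42 to 11.8) had a summit in a lncRNA gene over 1 kb from protein-coding genes. The share in library 1 was 6.86%, inside that interval, and eligible lncRNA sequence made up 6.985% of the autosomal sequence. Both shares are near that of the sequence itself, so their closeness does not show that the libraries share peaks. The 7 lay in Gm52725 with fold 28.9, Gm34259 with 27.4, D130079A08Rik with 20.05, Gm30762 with 14.9, Gm29260 with 9.29, Gm39877 with 9.17 and Gm36684 with 4.46. The peak in Gm36684, at chr17:13306044-13306097, was the 1 that overlapped a library 1 peak, with summits 7 bp apart, and its local background of 13.6 was the highest of the 7. The other 6 lay from 470 bp to 65165 bp from the nearest member summit, although each of their genes held at least 1 member. No control library is in the files used here, and the difference between the libraries was not tested.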

How the results depend on the processing

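The density inside lncRNA genes (235.8 per Mb) and its ratio to sequence outside genes (1.38) were recomputed under 8 settings. The density was 238.1, within its interval, with no distance from protein-coding genes required and 221.7 at 10 kb, with ratios of 1.358 and 1.439. It was 93.0 for peaks with −log10 q of at least 5 (ratio 1.293), 22.96 for the 10% highest folds (1.147), 228.2 for genes of at least 5 kb (1.333), 299.9 for genes with a given name (1.752, each peak counted once) and 229.8 with chromosomes X and Y (1.525). Gm1604a was again counted among the given names. With 1 peak kept per run of summits within 10 kb the density was 23.59 and the ratio reversed, to 0.882. By construction a dense stretch then counts once, whatever its length. The count of genes with a member was 7446, 2532 for the 10% highest folds, and between 5526 and 7689 under the others. The median fold of 3.80 became 4.81 at −log10 q of at least 5 and 4.85 with 1 peak per run. The first 250 bp inside starts (586.5 per Mb) gave 521.8 in bins of 500 bp, 505.0 in genes of at least 20 kb and 227.8 at −log10 q of at least 5. The own-flank ratio of 1.03 became 0.932 in genes of at least 5 kb and 0.940 at −log10 q of at least 5, and 0.991 for the 10% highest folds. Short genes entered the ratio of 0.932 mostly on the outside. Start windows with a summit, 37.3% at 50% GC or more and 4.44% below, became 14.4% and 1.24% at −log10 q of at least 5, and 59.4% and 12.2% with any 1 bp of a peak. No paired analysis was possible because the labels give 1 group and the results come from no test. Leaving out a replicate does not apply to results of 1 library. Depth limits single genes: a pileup of 14 has a counting interval of 7.65 to 23.5.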

Other observations

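Most lncRNA genes here are predicted RefSeq models, and model status moved with density. Predicted genes held 249.5 summits per Mb (246.6 to 252.4) and curated ones 214.4 (210.6 to 218.2), with a peak in more than 1 gene counted for each, while their shares with a member were close, 80.0% of 6829 and 78.2% of 2532. Start windows showed the other order: 18.5% (16.6 to 20.6) of curated windows held a summit and 14.2% (13.3 to 15.1) of predicted ones, with median GC contents of 48.7% and 46.3%. Median gene lengths were 10.35 kb for curated and 8.90 kb for predicted genes.

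The number of CpG in start windows moved with the presence of a summit too. The share of lncRNA windows with a summit was 8.34% (7.56 to 9.18) with fewer than 5 CpG, 27.7% (25.8 to 29.6) with 5 to 14 and 29.2% (23.4 to 35.5) with 15 or more. For protein-coding windows it was 10.9%, 27.0% and 27.6%, and in both gene types the intervals of the upper classes overlap.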
